A study of Mus musculus with 6 samples.

Results

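Enzymes that place or remove chemical marks on histones were described in intercalated cells of the mouse kidney 2 h after ischemia-reperfusion injury (IRI). The members were all rows of the deposited expression table whose symbol begins with Kdm, Hdac, Setd, Suv, Kat or Prmt followed by a digit, begins with Setdb or Mll, or is Sirt1 to Sirt7, Ehmt1, Ehmt2, Ezh1, Ezh2, Ep300 or Crebbp. This name rule found 78 of 37583 rows, which carry 77 symbols because Hdac4 is listed under 2 gene identifiers. By their known roles, 36 rows are writers, 35 are erasers and 7 are neither. The 7 are Kat2b-ps, a pseudogene, and 6 Mllt genes, which were named as fusion partners of MLL in leukemia and are not histone modifying enzymes.

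Writers add an acetyl or methyl group to a histone, and erasers take it off. Acetylation of histone tails by acetyltransferases is found at active genes and is removed by zinc-dependent deacetylases and by sirtuins, which need NAD. Methylation of a lysine can accompany activity or silencing, depending on the residue: H3K4 methylation marks active promoters, and H3K27 and H3K9 methylation mark silent chromatin. Several members act mainly on other proteins. Sirt3, Sirt4 and Sirt5 reside in mitochondria, Hdac6 deacetylates tubulin, Hdac10 acts on polyamines and Hdac11 removes fatty acyl groups.

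The RNA came from EGFP-positive cells, sorted in 2 rounds from the renal medulla of B1 VATPase EGFP mice, a transgenic line in which EGFP marks intercalated cells, the acid- and base-transporting cells of the collecting duct. The IRI group held 3 libraries from mice whose kidneys had been made ischemic and reperfused. The sham group held 3 libraries from mice that had the operation alone. Both groups carried the transgene, were 12 weeks old and were sampled 2 h after surgery, and each library pooled 4 kidneys of 2 mice.

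Reads counted in genes ranged between 22478011 and 24245330 in the IRI libraries and between 17421669 and 23061108 in the sham libraries. The labels also name the epididymis as the tissue and CX3CR1 as the gene that drives EGFP, against their own protocol. Intercalated cell markers summed to 21099 to 25341 CPM (reads scaled to library size) in IRI and 19770 to 25384 CPM in sham, and 1 of 8 tested fell, Atp6v1b1 (log2 -0.37, edgeR adjusted p = 0.0427), which encodes the B1 proton pump subunit that the mouse line is named for. The highest of 5 epididymis markers, Defb2, was at 3.23 to 7.83 CPM in IRI and 6.91 to 12.1 CPM in sham, and Lcn8 was at 0 in all 6 libraries. Principal cell markers were present too, at 5218 to 10320 CPM in IRI and 10687 to 11425 CPM in sham, and 1 of 4 tested fell. Thick ascending limb markers summed to 614 to 1119 CPM in IRI and 682 to 1176 CPM in sham, with edgeR adjusted p of 0.368 or more for all 3. The 7 leukocyte markers summed to 48.5 to 72.5 CPM in IRI and 9.83 to 13.5 CPM in sham, and 2 of 3 tested rose (Cd68 and Ptprc), with S100a8 at 0 in all sham libraries. Cd68 carried most of that difference, with a mean of 37.7 CPM in IRI and 0.903 CPM in sham, beside 17.4 CPM in IRI and 10.2 CPM in sham for Ptprc. Csf1r was not called (adjusted p = 0.649), and Emr1, Itgam and Cd3e averaged under 0.5 CPM in both groups. The part of these other cells in the changes below was not tested. In such sorted pools, fewer cells of a type and less RNA per cell cannot be told apart.

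Promoters were to be shown for Kdm6b, Kdm3a and Hdac5, and for the called writer with the largest change, Kat2a. The RefSeq promoter set used here held none for Kdm6b, so those of 3 members are shown. Hdac5 is a class IIa deacetylase, a class whose tested members rose, and Kdm3a is a demethylase without a call. Each promoter runs from 250 bases before to 50 bases after a transcription start in RefSeq (GRCm38.p6). It is given 5′ to 3′ on the gene's own strand, which is the minus strand for all 3. Capitals in Hdac5 mark CACGTG, a palindrome that holds ACGTG on both strands. ACGTG is a form of the core that hypoxia-inducible factors bind, which also occurs as GCGTG. The Hdac5 promoter lies at chr11:102230123-102230422, that of Kat2a at chr11:100712418-100712717 and the first of 3 listed for Kdm3a at chr6:71632868-71633167.
Hdac5: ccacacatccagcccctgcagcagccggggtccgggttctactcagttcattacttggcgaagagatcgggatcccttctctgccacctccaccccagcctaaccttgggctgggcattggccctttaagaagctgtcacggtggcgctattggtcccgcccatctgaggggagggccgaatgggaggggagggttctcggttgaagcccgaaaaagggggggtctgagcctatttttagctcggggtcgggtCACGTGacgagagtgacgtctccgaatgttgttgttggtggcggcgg
Kat2a: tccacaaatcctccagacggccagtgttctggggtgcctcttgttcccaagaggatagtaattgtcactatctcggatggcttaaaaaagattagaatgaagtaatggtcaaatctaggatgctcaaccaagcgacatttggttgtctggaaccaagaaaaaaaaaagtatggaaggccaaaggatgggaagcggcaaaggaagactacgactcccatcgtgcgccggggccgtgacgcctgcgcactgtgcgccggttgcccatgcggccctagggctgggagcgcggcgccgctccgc
Kdm3a: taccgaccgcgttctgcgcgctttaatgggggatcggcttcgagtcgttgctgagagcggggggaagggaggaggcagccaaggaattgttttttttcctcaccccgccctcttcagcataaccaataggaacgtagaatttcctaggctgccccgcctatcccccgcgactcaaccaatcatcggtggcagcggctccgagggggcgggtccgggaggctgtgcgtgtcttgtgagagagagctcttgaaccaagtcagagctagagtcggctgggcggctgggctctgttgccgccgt

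The Kat2a promoter and the first Kdm3a promoter held none of 3 motifs searched on both strands. The first was ACGTG, as above. The GCGTG form of that core was not searched, and the first Kdm3a promoter printed above holds it. The second was TGANTCA, which AP-1 factors bind. The third was TGACGTCA, the full cyclic AMP response element. The other 2 Kdm3a promoters each held 1 TGANTCA. Of the 78 members, 66 had a promoter in the table. ACGTG was present in 5 of 11 members called higher, 8 of 20 called lower and 6 of 32 without a call, against 21.8% of all genes in the table and 19.6% of all promoters. TGANTCA was present in 2 of 11, 1 of 20 and 2 of 32 of the same sets, against 8.97% of genes and 7.81% of promoters, and TGACGTCA in 0 of 11, 1 of 20 and 1 of 32, against 2.03% of genes and 1.79% of promoters. A match describes letters in this window and does not show that a factor binds there.

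IRI was compared with sham by edgeR's quasi-likelihood test on the read counts of all genes that passed a filter on low counts, with a threshold of 0.05 on the p adjusted by Benjamini-Hochberg for a call. Fold changes are fitted log2 values of IRI over sham with their standard error (SE). Of the 78 member rows, 74 passed the filter, each with at least 35 reads in every library. Kdm4d, Hdac9, Prmt8 and Kat2b-ps did not pass, with 1 to 24 reads over all 6 libraries, and were not tested. Counting ignored strand, and 30 of the 76 member rows found in GENCODE M21 share exonic bases with a gene on the other strand, over 20% of them in Setd1a, Kdm3b, Prmt6 and the longer Hdac4 entry. Of the 74, 14 rose and 21 fell. Among all 13881 genes tested, 45.5% were called, 24.2% higher and 21.2% lower, so the members' share of 47.3% called was near that of genes at large. Their median log2 fold change was -0.04, against 0.00 for all genes tested. The CPM of IRI and sham libraries did not overlap for 45 of 74 members, against 56.4% of all genes tested. Changes of at least 2-fold were called for 2 members higher (Hdac7 and Setd5) and 4 lower (Hdac11, Sirt4, Kat2a and Mllt3), against 11.5% higher and 8.5% lower among all genes tested. The other 29 called members changed by less than 2-fold, and the median size over the 35 called was 0.66 on the log2 scale, against 0.89 over all called genes.

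The number of members that rose, 14 in the main fit, depended on the libraries used, the filter and the scaling. It was 11, 10 and 13 without IRI replicates 1, 2 and 3. Without sham replicates 1, 2 and 3 it was 9, 9 and 8. With no filter on low counts it was 10. Under upper-quartile scaling 9 members rose and 26 fell. Under library size alone 7 rose and 27 fell, beside 14 and 21 under TMM. These scalings moved the median of all genes by -0.12 and -0.20 on the log2 scale, and genes at large moved in the same way: 3364 rose and 2948 fell under TMM, 2748 and 3789 under upper-quartile scaling, and 2400 and 4337 under library size alone. The count of all genes that rose was also lower with 1 library left out. It was 3172, 2771 and 3171 without IRI replicates 1, 2 and 3, and 3026, 2852 and 2566 without sham replicates 1, 2 and 3. With no filter on low counts it was 3265.

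**Figure D1:**
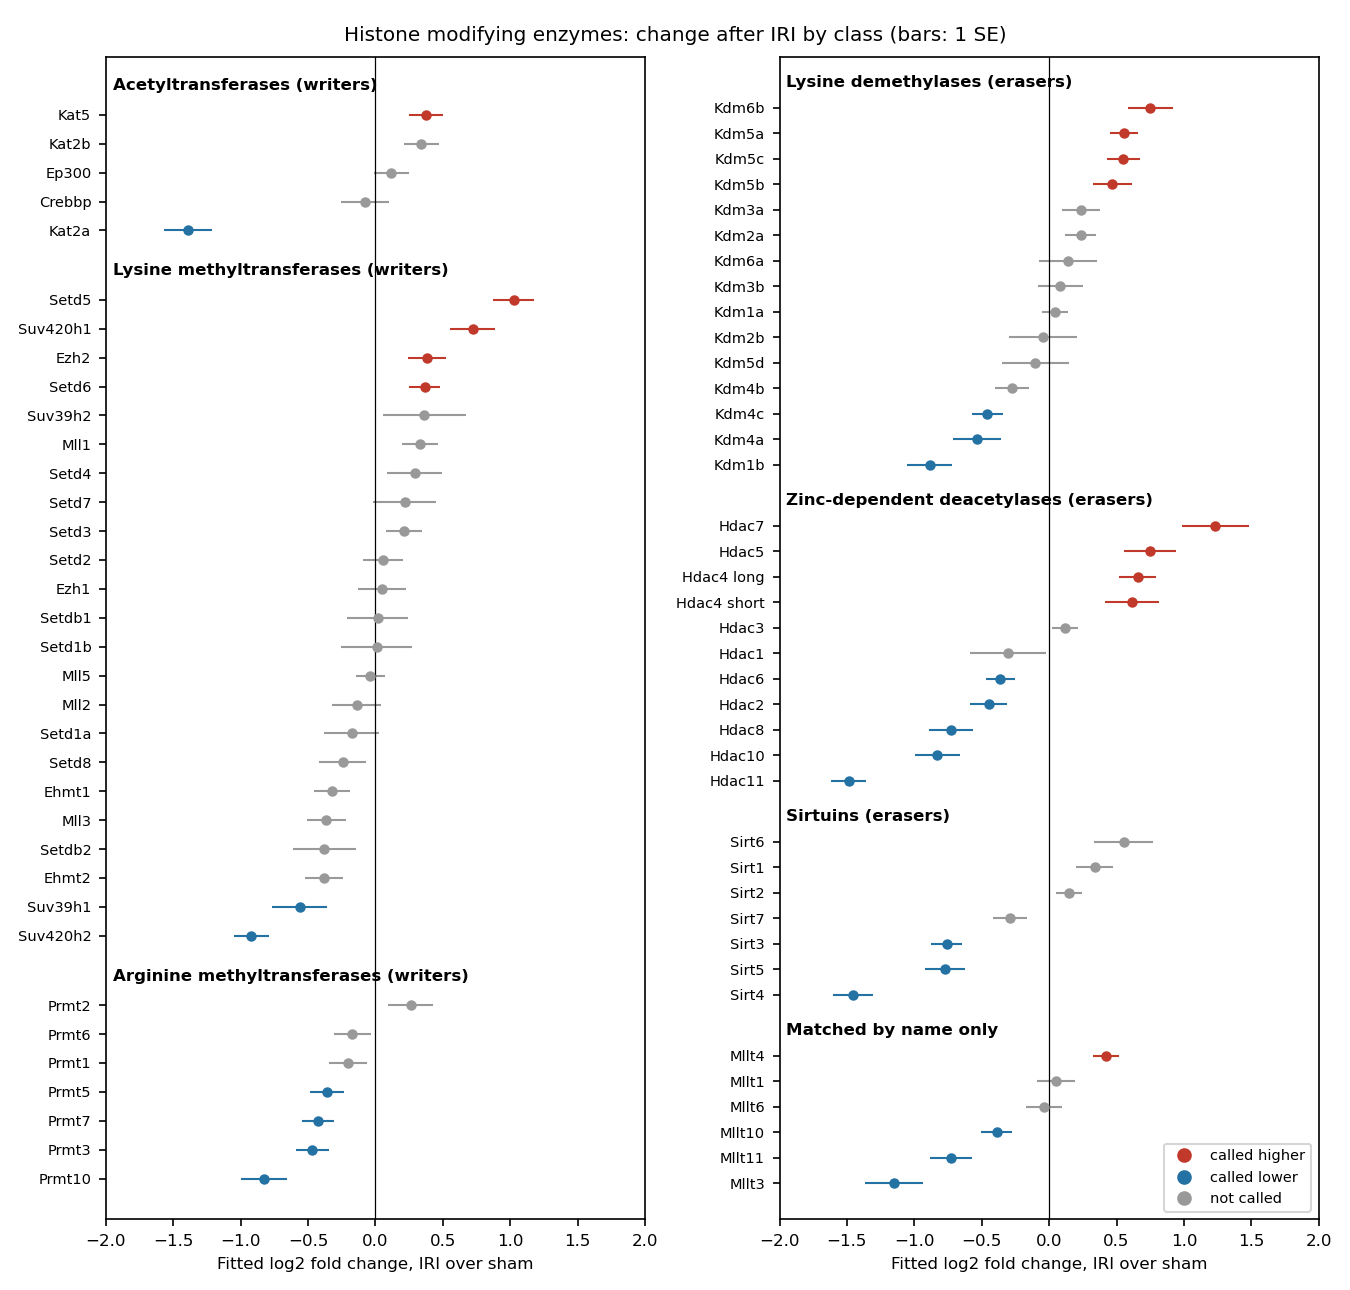
Fitted log2 fold change of IRI over sham for each of the 74 tested members, by class, with bars of 1 SE; red and blue points were called higher and lower at an adjusted p under 0.05, and grey points were not called. All 4 tested class IIa rows (Hdac5, Hdac7 and 2 of Hdac4) lie right of 0, and Hdac11, Sirt4 and Kat2a lie furthest left.

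Zinc-dependent deacetylases held the largest share of calls, 9 of 11 tested rows, with 4 higher and 5 lower. That is 81.8%, against 45.5% of all genes tested, with Hdac4 counted as 2 rows. The difference was not tested. Their direction differed between classes. All 4 tested rows of class IIa (Hdac4, under both identifiers, Hdac5 and Hdac7) rose, while 2 of 4 of class I, both of class IIb and the single member of class IV fell. Class IIa deacetylases shuttle between nucleus and cytoplasm under phosphorylation and repress MEF2 target genes. Of class I, Hdac1, Hdac2 and Hdac3 are the catalytic cores of nuclear corepressor complexes.

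Hdac7 had 50.7, 51.3 and 31.7 CPM in IRI libraries, against 23.6, 13.7 and 19.6 CPM in sham libraries. All IRI values lay above all sham values, with IRI replicate 3 nearest to them. Hdac7 rose 2.35-fold (log2 1.23 ± 0.25 SE, edgeR adjusted p = 0.00504). Hdac5 had 34.4, 46.9 and 29.5 CPM in IRI, against 18.5, 25.6 and 21.9 CPM in sham. Its groups did not overlap, but IRI replicate 3 stood close to sham replicate 2. Hdac5 rose 1.68-fold (log2 0.75 ± 0.19, edgeR adjusted p = 0.0125), and the call was lost only without sham replicate 1 (log2 0.61, adjusted p = 0.0537, the highest over 15 alternatives). The longer Hdac4 entry had 30.6, 29.3 and 29.4 CPM in IRI and 21.9, 16.3 and 18.4 CPM in sham. The IRI values were within 2 CPM of each other and clear of sham. It rose 1.58-fold (log2 0.66 ± 0.14, edgeR adjusted p = 0.00422); 22.4% of its exonic bases in GENCODE M21 are shared with a gene on the other strand, and counting ignored strand. The shorter entry carries the same symbol and rose too (log2 0.61, edgeR adjusted p = 0.0334), but its call was lost in 8 of 15 alternatives, among them leaving out any library except sham replicate 1. The identifier of the shorter entry is not found in GENCODE M21, and this entry is not separate support for a rise of Hdac4.

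Hdac11, the only class IV enzyme, had 11.4, 9.81 and 11.4 CPM in IRI, against 30.9, 32.3 and 28.2 CPM in sham. The groups were far apart. Hdac11 fell 2.80-fold (log2 -1.49 ± 0.13, edgeR adjusted p = 5.32e-05), the largest change of any member, and 17.9% of its exonic bases are shared with a gene on the other strand. Hdac2, a class I enzyme and the deacetylase of this family with the most RNA per length, had 83.5, 103 and 73.8 CPM in IRI and 114, 108 and 133 CPM in sham. Its highest IRI library came close to its lowest sham library. Hdac2 fell 1.36-fold (log2 -0.45 ± 0.14, edgeR adjusted p = 0.0263), a call lost without IRI replicate 1, IRI replicate 3 or sham replicate 3 (adjusted p up to 0.0792). Hdac10 (log2 -0.83, adjusted p = 0.00369) and Hdac8 (log2 -0.73, adjusted p = 0.00678) fell under every alternative. Hdac6 fell (log2 -0.36, adjusted p = 0.0218), but not without IRI replicate 1 or sham replicate 3 (adjusted p up to 0.0589). Hdac1 (log2 -0.31 ± 0.28) and Hdac3 (log2 0.12 ± 0.10), the other class I enzymes, were not called. Per library, the summed RPKM (reads scaled by gene length and library size) of class IIa over that of the other zinc-dependent deacetylases was 0.476, 0.424 and 0.406 in IRI, against 0.206, 0.166 and 0.178 in sham. Every IRI ratio was above every sham ratio. This ratio and those below were chosen after the values were seen and carry no test; a ratio within a library does not depend on the library's scaling.

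**Figure D2:**
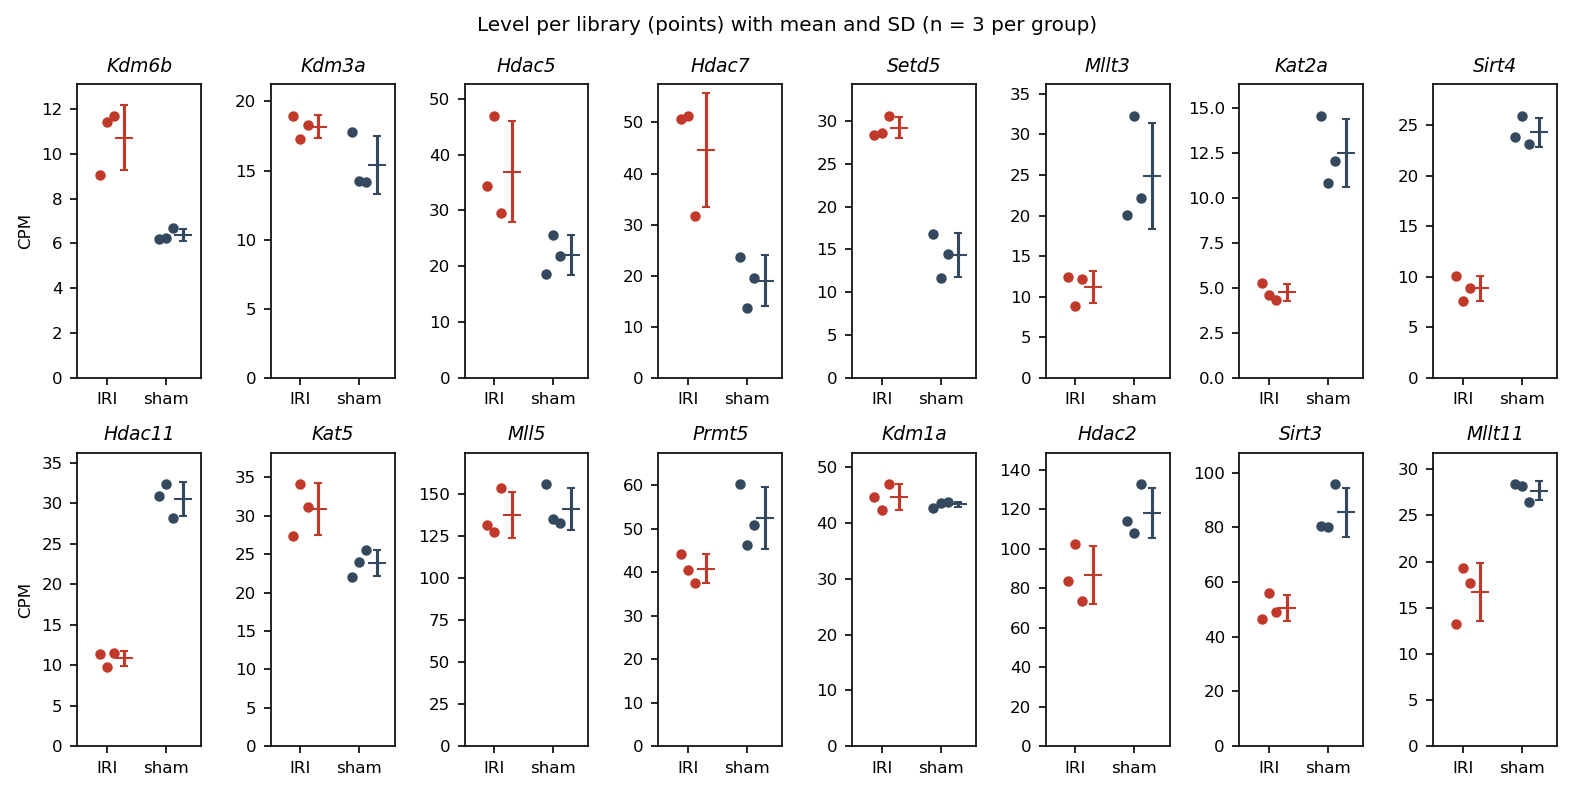
CPM per library (points) with mean and SD (n = 3 per group) for 16 members, IRI left and sham right in each panel, with the axis starting at 0. Hdac11, Sirt4 and Kat2a show wide gaps with IRI below sham, Hdac7 and Setd5 gaps with IRI above sham, and Kdm3a, Kdm1a and Mll5 overlapping groups.

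Of the 7 sirtuins, 3 fell, 0 rose and 4 had no call (42.9% called, near the 45.5% of all genes). The 3 that fell are those of mitochondria. Sirt4, which acts in mitochondrial amino acid and lipid metabolism, had 10.1, 7.61 and 8.89 CPM in IRI, against 23.8, 25.9 and 23.1 CPM in sham. The groups did not overlap, and the spread within each was small. Sirt4 fell 2.74-fold (log2 -1.46 ± 0.15, edgeR adjusted p = 0.000108). Sirt3, the main deacetylase of mitochondrial proteins, had 46.4, 55.8 and 49.1 CPM in IRI and 80.5, 80.2 and 95.7 CPM in sham. All IRI values lay below all sham values. Sirt3 fell 1.69-fold (log2 -0.76 ± 0.12, edgeR adjusted p = 0.000872). By mean RPKM it was the most abundant member in both groups, at 31.8 ± 2.87 RPKM in IRI and 55.4 ± 5.53 RPKM in sham (SD, n = 3 each), although Sirt2 was within that spread in IRI, at 29.4 ± 2.04 RPKM. The RPKM of Sirt3 rests on a deposited length of 1562 bases, against 5973 exonic bases in GENCODE M21. Of the latter, 12.7% are shared with genes on the other strand. Sirt5, which removes succinyl and malonyl groups, had 27.7, 24 and 21.2 CPM in IRI, against 34.9, 44.8 and 44.9 CPM in sham. It was lower in every IRI library than in any sham library and fell 1.71-fold (log2 -0.77 ± 0.15, edgeR adjusted p = 0.00284). All 3 calls held under all 15 alternatives.

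The nuclear and cytoplasmic sirtuins differed in sign, and 0 of the 4 had a call, in the quasi-likelihood fit or with limma-voom, DESeq2 or the exact test of edgeR. Before adjustment, Sirt1 and Sirt6 had a p under 0.05. Sirt6 was at log2 0.55 ± 0.22 (edgeR adjusted p = 0.0661), Sirt1 at 0.34 (adjusted p = 0.0759), Sirt2, which deacetylates tubulin, at 0.15 (adjusted p = 0.232) and Sirt7, an enzyme of the nucleolus, at -0.29 (adjusted p = 0.0950). Sirt6 was called higher without IRI replicate 3 (adjusted p = 0.0256) and Sirt7 lower without IRI replicate 1 (adjusted p = 0.0409) and under 2 scalings. Summed RPKM of Sirt3, Sirt4 and Sirt5 over that of Sirt1, Sirt6 and Sirt7 was 1.90, 2.26 and 2.55 in IRI and 3.20, 3.34 and 3.84 in sham. The IRI ratios were all lower than the sham ratios, which follows in part from a numerator that holds only the sirtuins called lower. Sirt2, at a mean of 29.4 RPKM in IRI and 27.2 RPKM in sham, was left out of this ratio.

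Of 15 lysine demethylases tested, 4 rose and 3 fell (46.7% called, near the 45.5% of all genes). Kdm6b, also called JMJD3, removes methyl groups from H3K27 and is known as an inducible gene in macrophages. It had 9.07, 11.4 and 11.7 CPM in IRI, against 6.21, 6.24 and 6.69 CPM in sham. The lowest IRI library stood above all sham libraries, which were close together. Kdm6b rose 1.68-fold (log2 0.75 ± 0.17, edgeR adjusted p = 0.00611) and was called under all 15 alternatives; its level was low, at 1.53 ± 0.19 RPKM in IRI and 0.931 ± 0.036 RPKM in sham (SD, n = 3 each). Of the 3 leukocyte markers tested, Cd68 and Ptprc rose and Csf1r was not called (edgeR adjusted p = 0.649), as given above. Whether leukocytes had a part in the Kdm6b change was not tested. Kdm6a, the other H3K27 demethylase, had overlapping groups and no call (log2 0.14 ± 0.22, adjusted p = 0.634). Kdm6b over Kdm6a RPKM was 0.993, 1.35 and 1.15 in IRI and 0.548, 0.910 and 0.960 in sham, and the groups did not overlap. Set against the writers of the same mark, the summed RPKM of Kdm6b and Kdm6a over that of Ezh1 and Ezh2 was 0.272, 0.346 and 0.450 in IRI and 0.293, 0.274 and 0.291 in sham. IRI replicate 1 was below all sham libraries and the other IRI libraries were above them, so the groups overlapped.

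Kdm3a, which demethylates H3K9 and is a known target of hypoxia-inducible factors, had 18.9, 17.3 and 18.3 CPM in IRI, against 17.8, 14.2 and 14.1 CPM in sham. Sham replicate 1 lay among the IRI libraries, so the groups overlapped. Kdm3a was not called (log2 0.24 ± 0.14, edgeR adjusted p = 0.197), nor was Kdm3b, its paralog (log2 0.08 ± 0.17).

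The Kdm5 enzymes remove H3K4 methylation with a JmjC domain. Kdm5a had 48.9, 44.1 and 50.1 CPM in IRI and 34.0, 30.9 and 32.6 CPM in sham, and Kdm5c had 20.2, 20.3 and 20.2 CPM in IRI and 13.6, 14.8 and 13.1 CPM in sham. Neither overlapped between groups. Kdm5a rose 1.47-fold (log2 0.55 ± 0.11, edgeR adjusted p = 0.00279) under every alternative, and Kdm5c rose 1.46-fold (log2 0.55 ± 0.12, edgeR adjusted p = 0.00606), a call lost only with library size alone (adjusted p = 0.0550, the highest over its alternatives). Kdm5b rose too (log2 0.47 ± 0.14, edgeR adjusted p = 0.0250), but lost its call in 7 alternatives, which include leaving out any library except IRI replicate 1. Kdm5d, the Y-linked member, was not called (log2 -0.10 ± 0.25).

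The flavin-dependent H3K4 demethylases differed from this. Kdm1b had 19.0, 16.4 and 22.5 CPM in IRI, against 42.9, 31.6 and 32.4 CPM in sham. All IRI libraries were below all sham libraries. Kdm1b fell 1.85-fold (log2 -0.89 ± 0.17, edgeR adjusted p = 0.00268) under every alternative. Kdm1a (LSD1), the demethylase with the highest RPKM in sham, had 44.6, 42.4 and 46.9 CPM in IRI and 42.7, 43.5 and 43.7 CPM in sham. Its groups overlapped, and no call was made (log2 0.04 ± 0.10, adjusted p = 0.741). Summed RPKM of Kdm5a, Kdm5b and Kdm5c over that of Kdm1a and Kdm1b was 0.852, 0.954 and 0.887 in IRI. It was 0.476, 0.506 and 0.532 in sham, without overlap. This sum holds only the Kdm5 genes called higher and leaves out Kdm5d. Of the Kdm4 enzymes, which act on H3K9 and H3K36, Kdm4c fell (log2 -0.46, edgeR adjusted p = 0.0104) under every alternative, and Kdm4a fell (log2 -0.53, edgeR adjusted p = 0.0362) except without any 1 library other than IRI replicate 1 (adjusted p up to 0.104). Kdm4b was not called (log2 -0.27, adjusted p = 0.107), except as lower under upper-quartile scaling (0.0274) and library size alone (0.0221), and the H3K36 demethylases Kdm2a (log2 0.24) and Kdm2b (log2 -0.04) were not called either.

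Acetyltransferases had 1 higher and 1 lower of 5 tested (40% called, against 45.5% of all genes). Kat2a (GCN5), the catalytic subunit of the SAGA and ATAC complexes, had 5.30, 4.63 and 4.35 CPM in IRI, against 14.6, 10.8 and 12.1 CPM in sham. The highest IRI value was under the lowest sham value by a wide margin. Kat2a fell 2.62-fold (log2 -1.39 ± 0.18, edgeR adjusted p = 0.000388) under every alternative. Its paralog Kat2b (PCAF) was higher in each IRI library than in any sham library but was not called (log2 0.34 ± 0.13, adjusted p = 0.0598), except without IRI replicate 2 (adjusted p = 0.0460). Kat2a over Kat2b RPKM was 0.235, 0.255 and 0.199 in IRI and 0.899, 0.644 and 0.738 in sham. The Kat2a share of the pair was thus lower in every IRI library. Kat5 (TIP60), an H4 acetyltransferase of the NuA4 complex, had 27.4, 34.1 and 31.2 CPM in IRI and 22.0, 24 and 25.5 CPM in sham. The gap between the groups was narrow. Kat5 rose 1.30-fold (log2 0.37 ± 0.13, edgeR adjusted p = 0.0379), but not in 8 alternatives. Among them were the fits without any 1 library other than IRI replicate 1 (adjusted p up to 0.15), and library size alone (0.271). Ep300 (log2 0.12 ± 0.13) and Crebbp (log2 -0.08 ± 0.18), the broad coactivator acetyltransferases, were not called.

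Most lysine methyltransferases had no call, 17 of 23, with 4 higher and 2 lower (26.1% called, against 45.5% of all genes). Setd5, a SET-domain protein whose histone substrate is not settled, had 28.3, 28.6 and 30.6 CPM in IRI, against 16.8, 11.6 and 14.5 CPM in sham. The groups were well apart. Setd5 rose 2.04-fold (log2 1.03 ± 0.15, edgeR adjusted p = 0.000761), the largest rise of a writer under the name rule. The pair that forms higher methylation states of H4K20 moved in opposite directions. Suv420h1 had 41.4, 47.1 and 54.5 CPM in IRI and 35.6, 24.2 and 26.9 CPM in sham, and Suv420h2 had 27.1, 22.1 and 20.5 CPM in IRI and 45.8, 42.4 and 44.0 CPM in sham. Neither gene overlapped between groups. Suv420h1 rose 1.65-fold (log2 0.72 ± 0.17, edgeR adjusted p = 0.00735) and Suv420h2 fell 1.89-fold (log2 -0.92 ± 0.13, edgeR adjusted p = 0.000576), both under every alternative. Suv420h1 over Suv420h2 RPKM was 0.468, 0.651 and 0.813 in IRI, against 0.238, 0.175 and 0.187 in sham. Setd8, which places the first methyl group on H4K20, was not called (log2 -0.24 ± 0.18), except as lower without sham replicate 1 (adjusted p = 0.0227).

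None of the 6 H3K4 methyltransferases tested (Mll1, Mll2, Mll3, Setd1a, Setd1b and Setd7) was called, with log2 values between -0.36 and 0.33 and adjusted p between 0.0701 and 0.983. Before adjustment, 2 of them had a p under 0.05, Mll1 (log2 0.33) and Mll3 (log2 -0.36), and DESeq2, limma-voom and the exact test of edgeR called 0. Mll3 was called lower in 4 of 15 alternatives: without IRI replicate 3 (adjusted p = 0.0329), under upper-quartile scaling (0.0257), under library size alone (0.0180) and with no filter on low counts (0.0477), while its adjusted p reached 0.183 in others. Mll2 was called lower without IRI replicate 1 (adjusted p = 0.0467), and its adjusted p reached 0.926 in others. Summed RPKM of Kdm5a, Kdm5b and Kdm5c over that of these 6 was 1.63, 2.09 and 1.89 in IRI, against 1.19, 1.28 and 1.48 in sham. All IRI ratios were above the sham ratios, which follows in part from using only the Kdm5 genes called higher. Kdm5d, Kdm1a and Kdm1b were left out. Mll5, which carries a SET domain without established methyltransferase activity and had the highest RPKM of this class in sham, had 132, 128 and 153 CPM in IRI and 156, 135 and 133 CPM in sham, with overlapping groups and no call (log2 -0.04 ± 0.11).

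Among enzymes of the silencing marks, Ezh2 rose weakly (log2 0.38 ± 0.14, edgeR adjusted p = 0.0498) and lost its call in 13 of 15 alternatives, while Ezh1, its paralog, was not called (log2 0.05). Suv39h1, an H3K9 methyltransferase of heterochromatin, fell (log2 -0.56 ± 0.20, edgeR adjusted p = 0.0475) and lost its call in 8 alternatives. For Ezh2 these included the fits without any 1 library other than IRI replicate 3 (adjusted p up to 0.232), and library size alone (0.361). For Suv39h1 they included the fits without any 1 library other than IRI replicate 2 (adjusted p up to 0.141). Ehmt1 (log2 -0.32, adjusted p = 0.0786), Ehmt2 (log2 -0.38, adjusted p = 0.0535), Setdb1, Setdb2 and Suv39h2 were not called. Upper-quartile scaling and library size alone, which lower all genes, gave a call of lower for Ehmt1 (adjusted p = 0.0215 and 0.0181) and Ehmt2 (0.0179 and 0.0132), as did the stricter filter (0.0480) and leaving out IRI replicate 1 (0.0460) for Ehmt2. Setd6, which methylates a subunit of NF-kB, rose (log2 0.37, edgeR adjusted p = 0.0295) but not in 8 alternatives, among them those without any 1 library other than IRI replicate 3. Setd2, the enzyme of H3K36 trimethylation, was not called (log2 0.06).

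Arginine methyltransferases fell or had no call: 4 of 7 tested fell and 0 rose (57.1% called, against 45.5% of all genes). Prmt5, which forms symmetric dimethylarginine and is the member of this class with the highest RPKM in sham, had 44.3, 40.6 and 37.6 CPM in IRI, against 60.3, 46.2 and 51.0 CPM in sham. The highest IRI library was just under the lowest sham library. Prmt5 fell 1.29-fold (log2 -0.36 ± 0.13, edgeR adjusted p = 0.0432), but not without IRI replicate 2, IRI replicate 3, sham replicate 1 or sham replicate 3 (adjusted p up to 0.115). Prmt10 (log2 -0.83 ± 0.17, adjusted p = 0.00438) and Prmt3, which methylates a ribosomal protein (log2 -0.47 ± 0.12, adjusted p = 0.0126), fell under every alternative. Prmt7, which forms monomethylarginine, fell (log2 -0.43, adjusted p = 0.0157), but not without sham replicate 2 (adjusted p = 0.0655). Prmt1, the main enzyme of asymmetric dimethylation, was not called (log2 -0.20 ± 0.14), except as lower under library size alone (adjusted p = 0.0346), and neither were Prmt2 (log2 0.26) and Prmt6 (log2 -0.17). No arginine methyltransferase that was not called had an unadjusted p under 0.05, and 0 rose with limma-voom, DESeq2 or the exact test of edgeR. Without IRI replicate 3, Prmt2 was called higher (adjusted p = 0.0389).

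Compared by role, 5 of 35 tested writers rose and 7 fell (34.3% called), and 8 of 33 tested erasers rose and 11 fell (57.6% called), against 45.5% of all genes. The difference between these shares was not tested. Median log2 fold changes were -0.04 for writers and 0.04 for erasers, both close to 0. With 1 library left out they ranged between -0.14 and 0.03 for writers and between -0.03 and 0.07 for erasers. The median of writers was above 0 without IRI replicate 2 or sham replicate 1, and that of erasers was below 0 without IRI replicate 1, sham replicate 2 or sham replicate 3, so neither median had a stable sign. Upper-quartile scaling and library size alone gave erasers -0.08 and -0.16, beside shifts of -0.12 and -0.20 in all genes. The count of writers that rose was 3 without IRI replicate 1, 3 without IRI replicate 2 and 2 without each of the sham libraries in turn. Neither role moved in 1 direction.

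Summed RPKM of writers was 184.4, 174.5 and 166.1 in IRI and 195.9, 187.6 and 179.7 in sham, with overlap. The sum over erasers was 209.3, 219.0 and 195.6 in IRI, against 253.9, 253.8 and 263.2 in sham, all lower in IRI. Most of that gap lay in the sirtuins, at 98.2, 102.1 and 89.6 RPKM in IRI and 128.1, 135.0 and 143.2 RPKM in sham. Erasers over writers gave 1.135, 1.255 and 1.178 in IRI, against 1.296, 1.353 and 1.465 in sham, every IRI ratio below every sham ratio. Without Sirt3 alone, the ratios were 0.974, 1.054 and 0.992 in IRI and 1.03, 1.075 and 1.121 in sham, and the groups overlapped.

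The order turned round when some members were left out, taken here to have a main substrate other than histones or none established. They were Mll5, Setd3, Setd4, Setd5, Setd6, Prmt3, Hdac6, Hdac10, Hdac11, Sirt2, Sirt3, Sirt4 and Sirt5. Erasers over writers was then 1.001, 1.065 and 1.028 in IRI, against 0.949, 0.933 and 0.972 in sham, every IRI ratio above every sham ratio. On that list, writers summed to 125.0, 120.2 and 109.7 RPKM in IRI and 137.6, 133.3 and 128.9 RPKM in sham. Erasers summed to 125.1, 128.0 and 112.7 RPKM in IRI and 130.6, 124.4 and 125.4 RPKM in sham. The writers' sums did not overlap between groups, and the erasers' sums did. Of the erasers on that list 8 rose and 5 fell, and of the writers 3 rose and 6 fell. Hdac8 and Prmt10, both called lower, were kept on that list, although they also act on proteins other than histones. The direction of the eraser to writer ratio therefore depended on which members were counted.

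**Figure D3:**
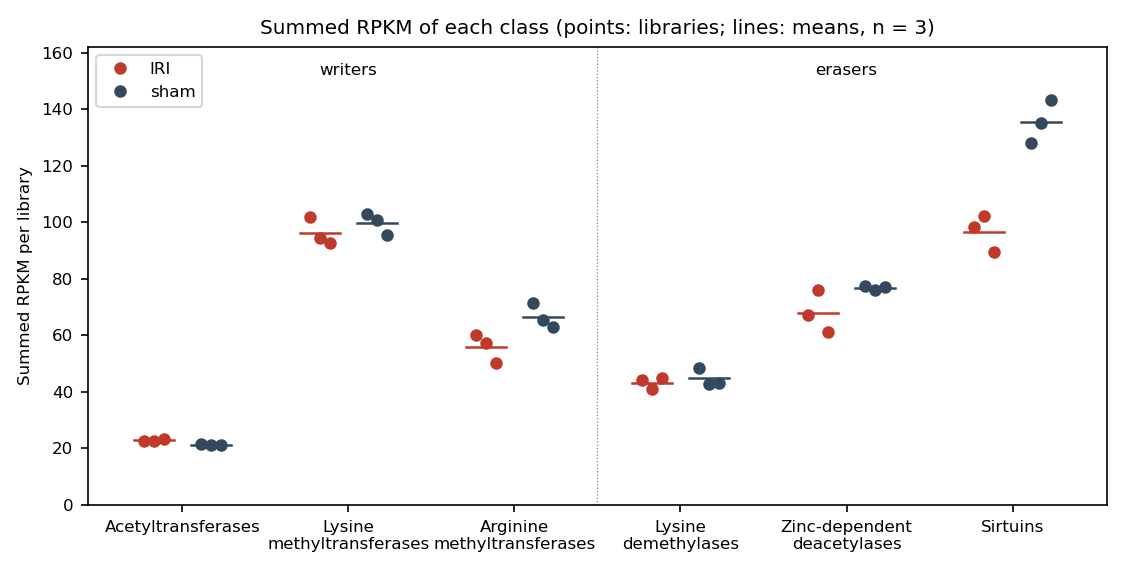
Summed RPKM per library (points, with the mean as a line, n = 3 per group) for 3 classes of writers and 3 of erasers, IRI left of sham in each class. Sirtuins show the widest gap, at 89.6 to 102.1 RPKM in IRI and 128.1 to 143.2 RPKM in sham, and lysine demethylases overlap.

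**Figure D4:**
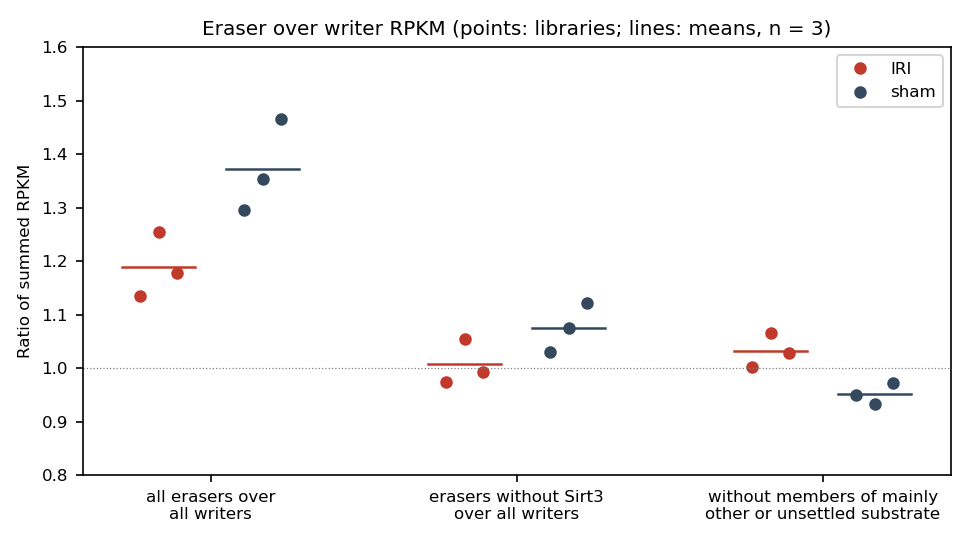
Summed eraser RPKM over summed writer RPKM per library (points, with the mean as a line, n = 3 per group) for 3 member lists, IRI left of sham; the axis starts at 0.8 and the dotted line marks equal sums. The IRI libraries lie below sham with all members, overlap sham without Sirt3, and lie above sham once members taken to have another or an unsettled main substrate are left out.

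The 6 Mllt genes were matched by name only. Mllt3 (AF9), a reader of acylated histones in the super elongation complex, had 12.5, 8.89 and 12.2 CPM in IRI, against 20.1, 32.3 and 22.1 CPM in sham. The groups did not overlap, and sham replicate 2 stood high. Mllt3 fell 2.22-fold (log2 -1.15 ± 0.21, edgeR adjusted p = 0.00250). Mllt11 had 13.2, 19.3 and 17.7 CPM in IRI and 28.4, 28.2 and 26.5 CPM in sham, without overlap, and fell 1.66-fold (log2 -0.73 ± 0.15, edgeR adjusted p = 0.00494). Mllt10 fell (log2 -0.39, adjusted p = 0.0197), but not without IRI replicate 2, sham replicate 2 or sham replicate 3 (adjusted p up to 0.0689). Mllt4 (afadin, a protein of cell junctions) rose (log2 0.42, adjusted p = 0.00677), but not without sham replicate 3 or with library size alone (adjusted p up to 0.0853), and Mllt1 and Mllt6 were not called.

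A further list of 57 rows held writers and erasers with other names and subunits of their complexes. Of 54 tested, 9 rose and 12 fell (38.9% called, against 45.5% of all genes). Dot1l, the H3K79 methyltransferase that works with Mllt3, had 27.5, 35.4 and 31.7 CPM in IRI, against 11.7, 13.2 and 12.9 CPM in sham. The groups were far apart. Dot1l rose 2.5-fold (log2 1.32 ± 0.14, edgeR adjusted p = 0.000119), while Mllt3 fell. Jmjd1c, a JmjC protein of the Kdm3 family, had 53.5, 66.4 and 81.0 CPM in IRI and 29.9, 25.1 and 21.6 CPM in sham, and rose 2.62-fold (log2 1.39 ± 0.18, edgeR adjusted p = 0.000376). It did not overlap between groups either, whereas its relative Kdm3a was not called. Of the subunits that work with Kat2a, Tada2a (log2 -0.83, adjusted p = 0.00116) and Tada3 (log2 -0.54, adjusted p = 0.0203) fell, the call of Tada3 being lost without IRI replicate 2, IRI replicate 3 or sham replicate 1, and Trrap was not called (log2 -0.05). Of those that work with Ezh2, Eed (log2 0.56, adjusted p = 0.00225) and Rbbp7 (log2 0.55, adjusted p = 0.00220) rose, and Jarid2 fell (log2 -0.45, adjusted p = 0.0224) except without IRI replicate 1, IRI replicate 2, sham replicate 1 or sham replicate 3. Suz12, a core subunit of that complex (log2 -0.07, adjusted p = 0.799), and Rbbp4 (log2 -0.23, adjusted p = 0.0526) were not called, although Rbbp4 was called lower in 6 of 15 alternatives.

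Some properties that the name rule did not use differed between the called members. Members that rose had a median length of 6593 bases and a median of 2.74 RPKM in sham, against 4700 bases and 7.76 RPKM for members that fell and 6604 bases and 2.75 RPKM for those without a call. Among all genes tested, the medians were 3943 bases and 4.40 RPKM for genes that rose, 3301 bases and 5.94 RPKM for genes that fell, and 3405 bases and 3.11 RPKM for the rest. In both sets, genes that fell were shorter and had more RNA per length in sham than genes that rose. The sham values are 1 side of the comparison that made the calls, so the sham level is not independent of the direction called. Among the called members, the 3 IRI libraries differed in how often they stood nearest to sham. IRI replicate 1 was the IRI library nearest to the sham mean for 18 of the 35 called members, IRI replicate 2 for 8 and IRI replicate 3 for 9. This count covers called members only and does not rank the whole libraries. In the chi-square per degree of freedom between libraries, given below, IRI replicate 3 had the lowest value against every sham library.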

How the data were processed

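Each library's read counts per gene were deposited as whole numbers, unscaled. STAR, HTSeq and edgeR were used with build mm9, per the submitters' processing notes; no versions are given in the sources used here, and counting ignored strand, per the file names. The RPKM values deposited by the authors equal counts divided by gene length and by TMM-scaled library size, so they are not independent of the counts. They were used for levels between genes and for sums.

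Counts were fitted with edgeR 4.0.16 in R 4.3.3 (TMM, filterByExpr, robust quasi-likelihood, group as the only term, all 6 libraries), and p-values were adjusted by Benjamini-Hochberg over 13881 genes. CPM used TMM-scaled library sizes. SEs were derived from the F statistic. Entries that name no gene held 49.3% to 50.9% of reads and were left out. The biological coefficient of variation was 19%. Separate experiments are not stated in the labels, so p-values measure only the spread between these pools, which may be technical. No library was a copy of another: the chi-square per degree of freedom was 16.9 to 46.3 within groups and 152.0 to 221.3 between them. The script was tested on simulated counts.

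Values in every library are given for Kdm6b, Kdm3a and Hdac5, members called with an absolute log2 fold change of at least 1, the member with the highest sham RPKM in each class, and, chosen after their values were seen, Hdac4, Sirt5, Kdm5a, Kdm5c, Kdm1b, Suv420h1 and Suv420h2. Members, roles and the list of 57 further rows were chosen with earlier results of these data known. Alternatives were other scalings, filters and tests (DESeq2 1.42.0, limma 3.58.1), a replicate block and leaving out each library. Symbols are those of the deposited table; 9 members have another current symbol, among them Mll1 (Kmt2a), Suv420h1 (Kmt5b), Suv420h2 (Kmt5c) and Prmt10 (Prmt9).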

Additional observations from a re-analysis of the deposited data

How the results depend on the processing

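Of 35 called members, 20 were called in all 15 alternative fits and 15 lost the call in at least 1. Of 39 without a call, 11 were called in at least 1. No called member changed sign. Upper-quartile scaling gave 9 members higher, library size alone 7, and leaving out 1 library 8 to 13, beside 14. The higher share of called members was 40.0%, against 25.7% under upper-quartile scaling and 20.6% under library size alone; for all genes these shares were 53.3%, 42.0% and 35.6%. Among writers, 2 were higher under upper-quartile scaling, library size alone or no filter on low counts, 3 without members of mainly other or unsettled substrates, and 2 to 5 with 1 library left out, beside 5. Writers lower numbered 11 with library size alone, beside 7. Erasers higher numbered 5 with library size alone, beside 8, and erasers lower 5 without members of mainly other substrates, beside 11. With the replicate block, 13 members were higher and 21 lower. Samples with the same number correlated at 0.182, 0.095 and 0.178 in their deviations from the group means, each best with its own number, a hint from the data that the labels do not state. The cause of these shifts was not tested. At this depth and with 3 libraries a group, the smallest called change of a member was 0.36 on the log2 scale, and that in the list of 57 further rows was 0.27. Suv39h2, a member with few reads, had the largest SE of the members, 0.31.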
